A study of Mus musculus with 20 samples.

Results

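The GIMAP genes (GTPases of immunity-associated proteins) encode small GTP-binding proteins of lymphocytes, and their RNA was followed here in mouse regulatory T cells (Tregs) and CD8+ T cells exposed to IL-2 and to IL-2-REH, a partial agonist, each at 200 nM. The 8 family members listed in the files under the symbols Gimap1, Gimap3, Gimap4, Gimap5, Gimap6, Gimap7, Gimap8 and Gimap9 were taken by symbol, out of 23992 gene symbols, and where a gene had several transcripts, the one with the highest read total in the 20 libraries stood for it. Tregs had been enriched with a CD4+ kit from spleen and lymph node of B6-Foxp3EGFP mice and sorted by GFP, whereas CD8+ T cells came by kit alone from C57BL/6J mice, and the sample records give C57BL/6N as the strain of both. The 5 groups of either cell type were unstimulated cells and cells kept ex vivo in IL-2, or in IL-2-REH, over 90 min and over 4 hr. The unstimulated cells are labelled 0 hr, and no group was kept for 90 min or 4 hr without cytokine. In every comparison with unstimulated cells, the cytokine and the time in culture therefore cannot be told apart. There were 3 libraries in a Treg group but 1 in a CD8+ group, so the CD8+ values carry no replicate error. The records do not say whether the numbered Treg libraries came from separate mice, and p-values then measure only the spread between these libraries, which may be technical. The study lists females of both strains, and ages of these mice are not given in the sources used here.

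GIMAP proteins share a guanine nucleotide-binding domain, and several carry a membrane anchor that places them on lysosomes, mitochondria, the endoplasmic reticulum or the Golgi. They are known for keeping resting lymphocytes alive: loss of Gimap5 in rats and mice depletes peripheral T cells, Gimap1 is needed for mature T and B cells, and Gimap6 takes part in autophagy through a GABARAP family protein. Gimap3 is a close relative of Gimap5 in the mouse, Gimap4 has been tied to T cell death and cytokine release, Gimap7 forms dimers that hydrolyse GTP, and Gimap8 joins several GTPase domains in a single protein.

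The 8 genes lie side by side on chromosome 6 of GRCm38, from position 48647186 to 48770851, a span of 123.7 kb. Their order is Gimap8, Gimap9, Gimap4, Gimap6, Gimap7, Gimap1, Gimap5 and Gimap3, with Gimap6 and Gimap3 on the minus strand. Exons of Gimap7, Gimap1 and Gimap5 overlap the annotated readthrough gene Gm28053. Over all annotated transcripts of Gimap1, 36.0% of the exon bases are covered by annotated neighbours, among them the antisense gene Gimap1os. The share for the transcript of 1505 bases that stood for Gimap1 was not computed. Since the use of strand in counting is not stated, reads of Gimap1 in that overlap are uncertain. Gimap5 and Gimap3 also share sequence. Of the 50-base words of their transcripts, 190 of 1904 in Gimap5 and 190 of 2096 in Gimap3 occur in the other gene, while the remaining 6 members share 0 words with any relative. Only uniquely mapped reads were counted, so the values of both genes rest on the parts that differ. The longest identical stretch, of 140 bases, and the first, of 57 bases, are shown because reads from them cannot be assigned, and both are coding in each gene.
Gimap5 bases 427 to 566 and Gimap3 bases 789 to 928 of the transcript: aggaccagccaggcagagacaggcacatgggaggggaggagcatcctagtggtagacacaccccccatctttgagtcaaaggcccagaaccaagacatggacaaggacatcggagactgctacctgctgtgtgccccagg
Gimap5 bases 319 to 375 and Gimap3 bases 681 to 737 of the transcript: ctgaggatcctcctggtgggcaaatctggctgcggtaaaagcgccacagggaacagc

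The 250 bases before the transcription start were read from RefSeq promoters of GRCm38.p6 for all 8 members and searched on both strands for TTCNNNGAA, the palindromic core bound by STAT factors, GGAAGT, a core of ETS factors, and TGTGGT, a core of RUNX factors. At its first listed start, 1 of 8 members held TTCNNNGAA (Gimap6), against 7.18% of 27025 windows. A second RefSeq start of Gimap8 held it too. GGAAGT was present in 2 of 8 (Gimap6 and Gimap5, against 5401 of the 27025 windows) and TGTGGT in 3 of 8 (Gimap4, Gimap7 and Gimap1, against 14.2%). The windows of Gimap6, the member with the widest range in Tregs, and of the related genes Gimap5 and Gimap3 are given, with TTCNNNGAA and GGAAGT in capitals. No match overlaps another, and a match is a run of letters, not a measured binding site.
Gimap6 promoter (chr6:48708245-48708494, minus strand): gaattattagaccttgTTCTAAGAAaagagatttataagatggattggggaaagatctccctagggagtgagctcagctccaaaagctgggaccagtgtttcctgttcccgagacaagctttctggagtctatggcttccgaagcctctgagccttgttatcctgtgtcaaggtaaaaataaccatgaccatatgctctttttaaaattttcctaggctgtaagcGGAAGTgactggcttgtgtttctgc
Gimap5 promoter (chr6:48745947-48746196, plus strand): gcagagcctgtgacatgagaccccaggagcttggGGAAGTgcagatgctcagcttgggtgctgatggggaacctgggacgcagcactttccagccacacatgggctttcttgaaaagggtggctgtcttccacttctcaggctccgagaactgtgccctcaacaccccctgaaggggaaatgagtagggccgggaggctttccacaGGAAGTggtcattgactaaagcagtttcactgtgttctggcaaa
Gimap3 promoter (chr6:48770852-48771101, minus strand): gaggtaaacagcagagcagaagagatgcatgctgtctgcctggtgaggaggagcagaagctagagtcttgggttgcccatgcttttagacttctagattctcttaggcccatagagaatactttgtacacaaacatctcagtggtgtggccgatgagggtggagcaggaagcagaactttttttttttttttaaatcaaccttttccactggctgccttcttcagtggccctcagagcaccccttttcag
In Gimap6, 225 bases lie between TTCTAAGAA and the start and 19 between GGAAGT and the start, and in Gimap5 the matches of GGAAGT lie 210 and 38 bases before it.

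The libraries held 20201392 to 63903764 reads on genes, and every member had between 821 and 124132 reads in each. Foxp3, the transcription factor that defines Tregs, was at 65.2 to 252 RPKM (read count divided by exon length and by sequencing depth) in Tregs and at 0.482 to 0.999 in CD8+ T cells, and Cd8a at 0.088 to 1.84 and 103 to 256. Replicate numbers differed in the markers of other cells. The summed RPKM of the macrophage and myeloid markers was 9.05 to 19.8 in replicate 1, 35.6 to 102 in replicate 2 and 69.8 to 234 in replicate 3, and that of erythroid genes was 194 to 340 in replicate 3 and lower in every other Treg library. In unstimulated Tregs, S100a8 and S100a9 were at 58.7 and 77.1 RPKM in replicate 3 and at 0.49 to 0.737 in replicates 1 and 2. Apart from Lyz2 (34.7 and 36.4), the other genes of that list were higher in replicate 2 than in replicate 3, such as Csf1r (10.7 and 4.93). Leaving out replicate 1 raised the number of genes that passed the tests below, so comparisons that rest on it are given with and without it. RPKM is scaled to each library's mapped reads and the edgeR fits to its TMM factors, so ratios of RPKM can differ from the fitted fold changes. In bulk RNA, fewer cells of a type and less RNA per cell cannot be told apart.

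All 8 genes were well expressed in both cell types, and 3 of them made up most of the family's RNA. In Tregs, Gimap3 averaged 504 RPKM over the 15 libraries, Gimap6 499 and Gimap4 326, which ranked them 100, 101 and 126 of 23992 genes. A second tier followed, with Gimap8 at 96.1 RPKM, Gimap1 at 94.0, Gimap9 at 82.4, Gimap7 at 56.2 and Gimap5, the member best known for T cell survival, at 53.4. Gimap3, Gimap6 and Gimap4 together held 71.2% to 83.0% of the family's summed RPKM in each library. The whole family took 0.420% to 0.557% of the reads on genes in Tregs and 0.244% to 0.372% in CD8+ T cells.

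The order of these levels was only partly resolved. Gimap4 exceeded Gimap8 in 15 of 15 Treg libraries, and the 3 high members thus stood clear of the other 5. Gimap3 was above Gimap6 in 9 of 15, Gimap8 above Gimap1 in 7 of 15 and Gimap7 above Gimap5 in 9 of 15, so these neighbours did not keep a steady order. The 15 libraries pool the 5 groups and are not 15 replicates, and no test of the order was run. RPKM divides by the full exon length, which for Gimap5 and Gimap3 includes the shared bases. Gimap6 exceeded Gimap4 in 13 of 15, Gimap1 exceeded Gimap9 in 11 of 15 and Gimap9 exceeded Gimap7 in 14 of 15. In CD8+ T cells, the highest were Gimap3 at 296 RPKM, Gimap4 at 265 and Gimap6 at 264, and Gimap7 was the lowest at 18.5 RPKM, where it ranked 2601 of 23992. The spread over the 15 Treg libraries, as a coefficient of variation, ran from 10.6% for Gimap4 to 31.6% for Gimap6.

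**Figure D1:**
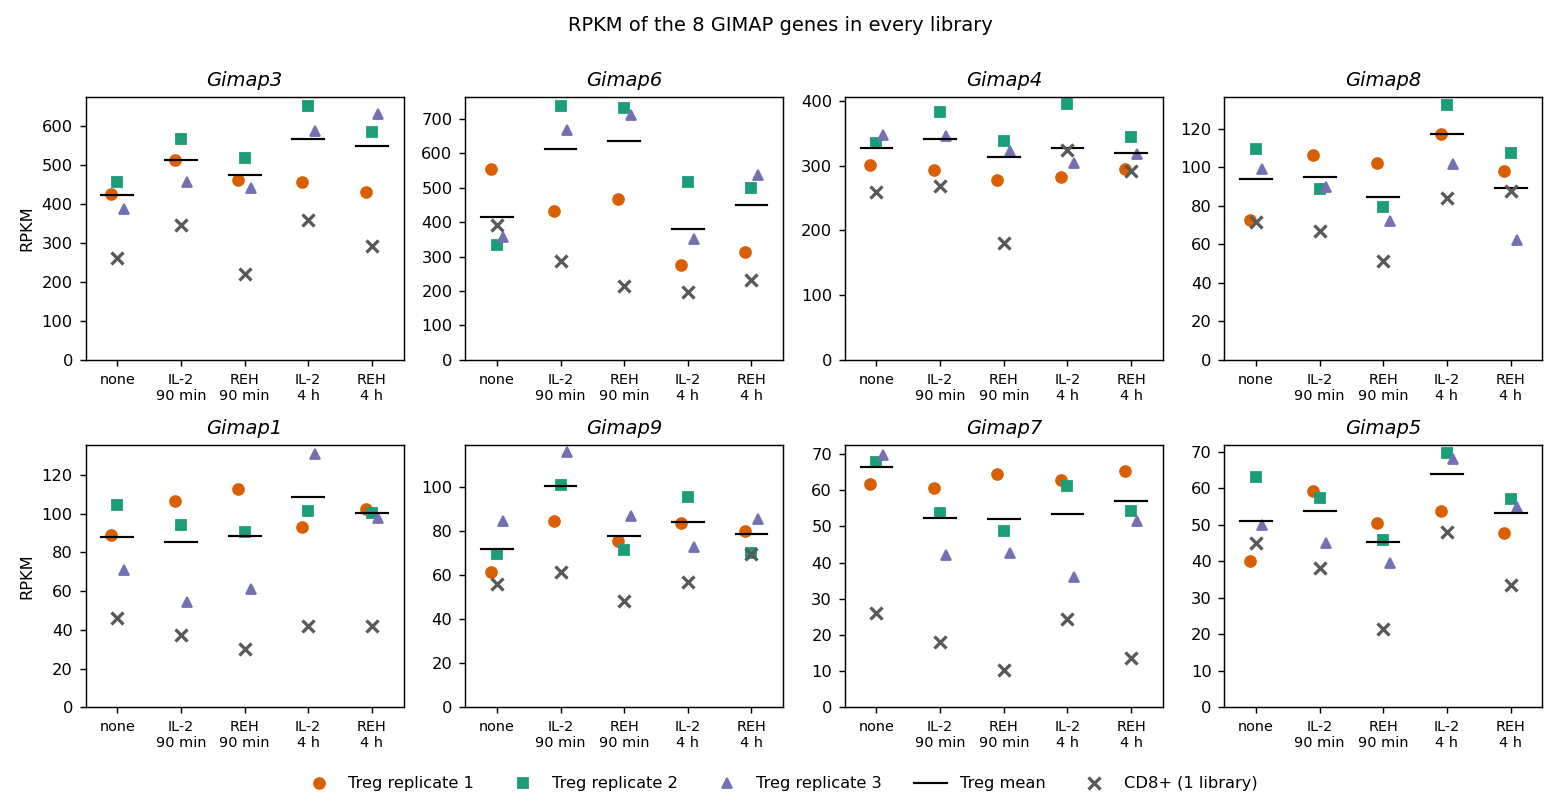
RPKM of each GIMAP gene (y axis, from 0) in the 5 groups, unstimulated and each cytokine at 90 min and 4 hr (x axis); coloured points are the 3 Treg libraries of a group, bars their mean, and crosses the single CD8+ library. Gimap6 in replicate 1 started at 554 RPKM and was lower in all 4 stimulated libraries, while in replicates 2 and 3 it started at 333 and 357 and was highest at 90 min.

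To ask how the family differed in stimulated Tregs, each stimulated group was compared with the unstimulated cells of 0 hr. The comparison used edgeR's quasi-likelihood test over 14992 genes, with Benjamini-Hochberg adjustment. With all 15 libraries, 0 of 8 members passed an adjusted p of 0.05 in any of the 4 comparisons. Among all genes, 0.854% passed with IL-2 at 90 min, 2.26% with IL-2 at 4 hr, 0.0934% with IL-2-REH at 90 min and 0.314% with IL-2-REH at 4 hr. DESeq2, limma on log2(RPKM + 1) and the edgeR fit with the replicate number as a block also called 0 members. In the same order of comparisons, 4.1%, 7.2%, 0.763% and 4.19% of all genes passed in DESeq2, 1.03%, 2.54%, 0.0% and 0.239% in limma and 1.83%, 6.94%, 0.213% and 3.03% in the blocked fit. At an unadjusted p under 0.05, there was 1 member with IL-2 at 90 min (Gimap9), 3 with IL-2 at 4 hr (Gimap5, Gimap3 and Gimap8) and 0 with IL-2-REH at either time, against 13.8%, 17.7%, 11.4% and 13.3% of all genes. In the blocked edgeR fit Gimap8 missed this threshold with IL-2 at 4 hr (unadjusted p = 0.0573). The 4 comparisons share the unstimulated libraries. The log2 fold changes of the members ranged from -0.22 to 0.70 at 90 min and from -0.26 to 0.48 at 4 hr under IL-2. Under IL-2-REH they ranged from -0.24 to 0.75 and from -0.22 to 0.38.

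The pattern changed when the unstimulated library of replicate 1 was left out and the replicate number was used as a block, an alternative chosen after the data were seen. Then 3 members passed under IL-2 at 90 min (Gimap6, Gimap3 and Gimap9), 1 under IL-2 at 4 hr (Gimap3), 2 under IL-2-REH at 90 min (Gimap6 and Gimap3) and 2 under IL-2-REH at 4 hr (Gimap6 and Gimap3), where 26.9%, 21.0%, 25.4% and 16.7% of all genes passed. In that edgeR fit the log2 fold change of Gimap3 was 0.63, 0.68, 0.51 and 0.57 in the same order (adjusted p = 0.0105, 0.00929, 0.0288 and 0.0249). That of Gimap6 was 1.34 under IL-2-REH at 90 min (adjusted p = 0.000295 from edgeR) and 0.69 at 4 hr (adjusted p = 0.0220), and 1.27 under IL-2 at 90 min (adjusted p = 0.000384), where Gimap9 was at 0.68 (adjusted p = 0.0279).

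Gimap6, the autophagy-linked member, had the widest response, and it depended on the replicate. In unstimulated Tregs, Gimap6 was at 554, 333 and 357 RPKM in replicates 1, 2 and 3. With IL-2 it was at 431, 736 and 667 RPKM at 90 min and at 277, 515 and 351 at 4 hr. With IL-2-REH it was at 468, 732 and 711 RPKM at 90 min and at 313, 498 and 537 at 4 hr. In replicates 2 and 3 every library at 90 min was above the unstimulated ones, whereas replicate 1 began above them and was lower in each stimulated library, and the groups overlapped.

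In same-numbered pairs, the log2 ratio of RPKM + 1 to unstimulated cells for Gimap6 at 90 min was -0.36, 1.14 and 0.90 under IL-2, next to -0.24, 1.13 and 0.99 under IL-2-REH. The group means were 414.7 ± 121 RPKM unstimulated, 611 ± 160 under IL-2 and 637 ± 147 under IL-2-REH (SD, n = 3). The edgeR log2 fold change was 0.70 with IL-2 (95% interval -0.09 to 1.48, adjusted p = 0.415) and 0.75 with IL-2-REH (-0.04 to 1.53, adjusted p = 0.452). Without replicate 1 in every group, it was 1.32 with IL-2 (adjusted p = 0.00555 from edgeR) and 1.34 with IL-2-REH (adjusted p = 0.00527), and Gimap6 was then the 1 member called of 8 in each comparison. In that fit 17.3% and 15.7% of all genes were called, and without replicate 2 the values of Gimap6 were 0.33 and 0.43, without replicate 3 0.42 and 0.46. Leaving out the unstimulated library of replicate 1 alone gave 1.07 with IL-2 (adjusted p = 0.0828 from edgeR, with 12.9% of all genes called) and 1.12 with IL-2-REH (adjusted p = 0.0751, with 12.1% called). The summed macrophage and myeloid markers given above were also lower in every library of replicate 1 than in replicates 2 and 3. The erythroid sum did not divide the replicates in this way. It overlapped between replicates 1 and 2 and was high in replicate 3 alone. The part of either marker sum in the Gimap6 difference between replicates was not tested.

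At 4 hr, Gimap6 averaged 381 ± 122 RPKM under IL-2 and 449 ± 119 under IL-2-REH (SD, n = 3), close to the unstimulated mean. Its log2 fold change from unstimulated cells was -0.11 for IL-2 and 0.08 for IL-2-REH (adjusted p = 0.903 and 0.948 from edgeR), and without replicate 1 it was 0.43 and 0.65 (adjusted p = 0.205 and 0.0886). The direction at 4 hr therefore changed with the libraries used. Compared directly, Gimap6 was lower at 4 hr than at 90 min in 6 of 6 same-numbered Treg pairs over both cytokines, with log2 ratios of RPKM + 1 from -0.93 to -0.40, and 12.4% of all genes were lower in all 6. The groups at the 2 times overlapped. The edgeR log2 fold change from 90 min to 4 hr was -0.81 with IL-2 (95% interval -1.59 to -0.02, unadjusted p = 0.0450, adjusted p = 0.286) and -0.67 with IL-2-REH (-1.45 to 0.12, adjusted p = 0.409). For 4 hr against 90 min, 0 members and 0.0% of all genes passed with either cytokine, and at an unadjusted p under 0.05 the counts were 1 member with IL-2 (Gimap6) and 0 with IL-2-REH, against 17.0% and 14.6% of all genes. DESeq2 called 0 members with either cytokine, where 2.78% and 1.99% of all genes passed, and so did the blocked fit, where 0.387% and 0.04% passed. Without replicate 1 in every group, the log2 fold change of Gimap6 was -0.89 for IL-2 and -0.69 for IL-2-REH (adjusted p = 0.0535 and 0.101 from edgeR), where 4.32% and 3.96% of all genes passed.

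Gimap3, the mitochondrial relative of Gimap5, was higher in stimulated than in unstimulated cells in the 3 same-numbered Treg pairs of each comparison. The comparisons share the unstimulated libraries. The smallest log2 ratio of RPKM + 1 was 0.02, in replicate 1 with IL-2-REH at 4 hr. Its RPKM in replicates 1, 2 and 3 was 425, 456 and 388 in unstimulated cells. It was 513, 566 and 456 at 90 min and 457, 652 and 586 at 4 hr with IL-2. With IL-2-REH it was 462, 518 and 439.9 at 90 min and 431, 585 and 630.3 at 4 hr. The 3 libraries with IL-2 did not overlap the unstimulated ones at either time, though the lowest of them, at 456 RPKM at 90 min and 457 at 4 hr, was barely above the highest unstimulated library at 456. Those with IL-2-REH overlapped the unstimulated ones. The log2 fold change of Gimap3 was 0.42 and 0.48 with IL-2 at 90 min and 4 hr (adjusted p = 0.394 and 0.247 from edgeR) and 0.30 and 0.38 with IL-2-REH (adjusted p = 0.586 and 0.469). Without replicate 1, these values were 0.58, 0.69, 0.47 and 0.61 for IL-2 at both times and then IL-2-REH (adjusted p = 0.0741, 0.0512, 0.141 and 0.0838 from edgeR), where 17.3%, 13.4%, 15.7% and 10.7% of all genes passed. All 3 pairs were higher for 2 members with IL-2 at 90 min (Gimap9 and Gimap3, 14.1% of all genes), 3 with IL-2 at 4 hr (Gimap8, Gimap5 and Gimap3, 14.7%) and 2 with IL-2-REH at each time (Gimap9 and Gimap3, 13.6% at 90 min and 18.4% at 4 hr).

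Gimap9 was higher with IL-2 at 90 min in each pair but did not pass the adjusted test. It was at 61.3, 69.5 and 84.3 RPKM in unstimulated Tregs and at 84.4, 101 and 116 with IL-2 at 90 min. The IL-2 values were above all unstimulated ones, with the lowest of the first just over the highest of the second. With IL-2-REH at 90 min it was at 75.5, 71.3 and 86.7 RPKM, which overlapped the unstimulated libraries. The log2 fold change of Gimap9 at 90 min was 0.65 with IL-2 (95% interval 0.16 to 1.14, unadjusted p = 0.0136, adjusted p = 0.234 from edgeR) and 0.27 with IL-2-REH (adjusted p = 0.667). At 4 hr it was 0.29 and 0.14 (adjusted p = 0.549 and 0.846 from edgeR). Without replicate 1, the value with IL-2 at 90 min was 0.79 (adjusted p = 0.0647 from edgeR). With the replicate block on all libraries, it was 0.64 (unadjusted p = 0.0059, adjusted p = 0.111 from edgeR).

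Gimap7, a GTPase that is active as a dimer, was the 1 member whose libraries all lay below the unstimulated ones with IL-2 at 90 min. Its RPKM was 61.8, 67.8 and 69.6 without cytokine, 60.8, 53.8 and 42.2 with IL-2 at 90 min and 64.5, 48.8 and 42.7 with IL-2-REH at 90 min. Replicate 1 was almost level in each comparison and replicate 3 was lowest. The log2 fold change of Gimap7 was -0.22 and -0.26 with IL-2 and -0.24 and -0.22 with IL-2-REH at 90 min and 4 hr (adjusted p = 0.635, 0.497, 0.636 and 0.674 from edgeR). Counted over the family with IL-2 at 90 min, the 3 libraries of each group did not overlap for 2 members that were higher (Gimap9 and Gimap3), where 7.14% of all genes were higher in this way, and for 1 that was lower (Gimap7), where 5.53% were lower. With IL-2 at 4 hr, 1 member did not overlap and was higher (Gimap3), against 5.97% of all genes.

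At 4 hr with IL-2, Gimap8 and Gimap5 stood above unstimulated Tregs on average. Gimap8, the member with several GTPase domains, was at 72.8, 109.5 and 99.4 RPKM without cytokine and at 117, 132 and 102 with IL-2. Gimap5 was at 40.1, 63.1 and 49.9 RPKM without cytokine and at 53.7, 69.5 and 68.1 with IL-2. All 3 pairs were higher for both genes, but the groups overlapped. The log2 fold change was 0.40 for Gimap8 (unadjusted p = 0.0475, adjusted p = 0.276) and 0.41 for Gimap5 (unadjusted p = 0.0208, adjusted p = 0.195 from edgeR). With the replicate block in edgeR, the unadjusted p was 0.0573 for Gimap8 and 0.0195 for Gimap5.

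Gimap4 and Gimap1 moved least or least evenly. Gimap4 stayed between 278 and 395 RPKM in the 15 Treg libraries, and its log2 fold changes ran from -0.04 to 0.21. Gimap1 was at 89.0, 104 and 71.0 RPKM in unstimulated Tregs and at 93.2, 101 and 131 with IL-2 at 4 hr. Its log2 fold change there was 0.39 (adjusted p = 0.402 from edgeR) and rested on replicate 3, in which the ratio of RPKM + 1 was 1.83 against 1.05 and 0.971 in replicates 1 and 2. Without replicate 3 in every group, the log2 fold change of Gimap1 was 0.06.

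**Figure D2:**
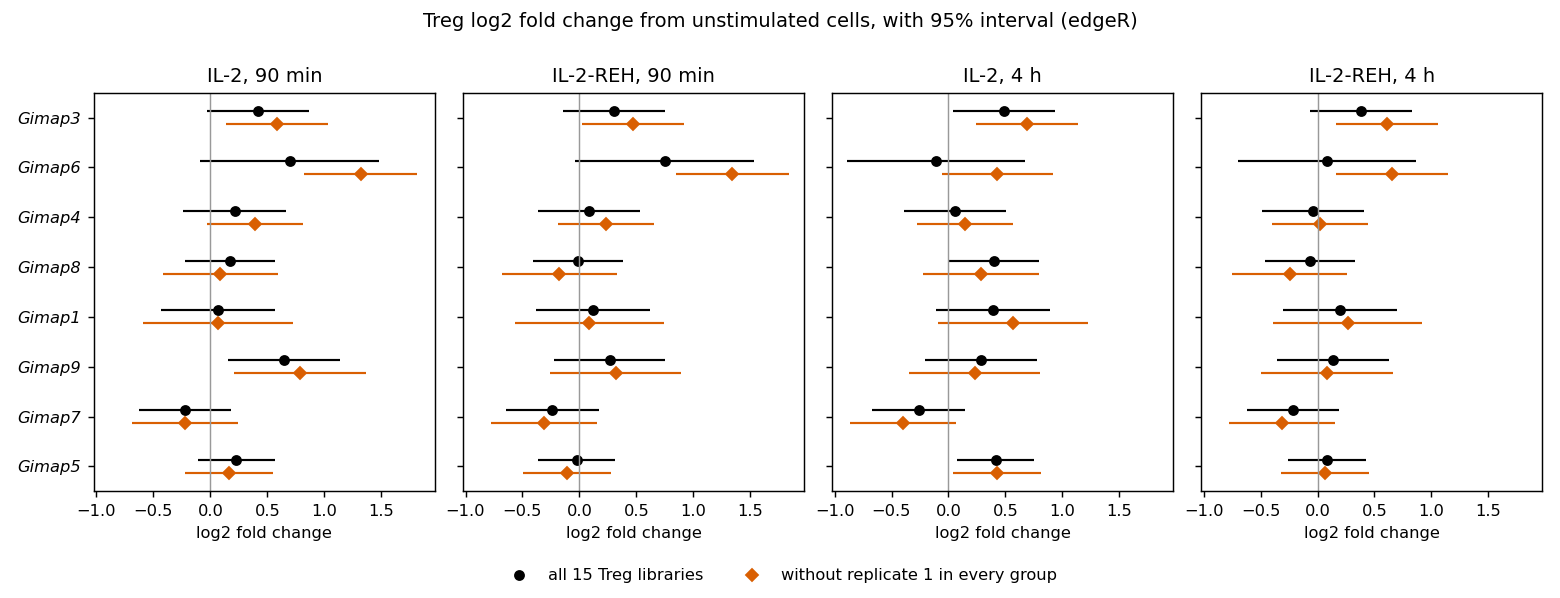
Log2 fold change of each GIMAP gene in Tregs from unstimulated cells (x axis), with its 95% interval from edgeR, for both cytokines at 90 min and 4 hr; black points use all 15 libraries and orange diamonds leave out replicate 1 in every group. Gimap6 at 90 min shifts from 0.70 and 0.75 to 1.32 and 1.34 and Gimap6 is the 1 member called in those fits without replicate 1.

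IL-2-REH is a variant of IL-2 with substitutions that lower its binding to the common gamma chain of the receptor, and both were used at 200 nM, so they were compared directly at each time. At 90 min and at 4 hr, 0 of 8 members differed at an adjusted p of 0.05 in edgeR, where 0.0133% and 0.0267% of all genes did, and the other tools also called 0. Of all genes, 0.107% and 0.456% passed in DESeq2, 0.0% at both times in limma and 0.0133% and 0.0667% in the blocked fit. At an unadjusted p under 0.05, there was 0 of 8 at 90 min and 1 of 8 at 4 hr (Gimap8), against 0.994% and 3.73% of all genes. A p that misses the threshold does not show that the cytokines act alike. The 95% intervals of the log2 difference, IL-2-REH minus IL-2, were widest for Gimap6, from -0.73 to 0.83 at 90 min and from -0.59 to 0.97 at 4 hr.

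Gimap8 and Gimap5 were lower with IL-2-REH than with IL-2 in 6 of 6 same-numbered Treg pairs over both times, and 5.0% of all genes tested were lower in all 6. By time, all 3 pairs were lower for 5 members at 90 min (Gimap8, Gimap9, Gimap4, Gimap5 and Gimap3, against 15.8% of all genes) and for 2 at 4 hr (Gimap8 and Gimap5, against 12.6%). For Gimap8, the RPKM with IL-2 in replicates 1, 2 and 3 was 107, 89.0 and 89.9 at 90 min, against 103, 79.3 and 72.3 with the partial agonist. At 4 hr it was 117, 132 and 102 against 98.1, 108 and 62.5. The differences were smallest in replicate 1 and largest in replicate 3, and the groups overlapped. The log2 difference of Gimap8 was -0.18 at 90 min (95% interval -0.58 to 0.21) and -0.46 at 4 hr (-0.86 to -0.07, unadjusted p = 0.0242, adjusted p = 0.9996 from edgeR).

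For Gimap5, the RPKM with IL-2 was 59.2, 57.4 and 44.9 at 90 min against 50.3, 45.8 and 39.6 with IL-2-REH. At 4 hr it was 53.7, 69.5 and 68.1 against 47.9, 57.0 and 54.9. The pairs differed by similar amounts, with log2 ratios of RPKM + 1 from -0.32 to -0.16 and a median of -0.26, where the median over all genes was 0.02. The edgeR log2 difference was -0.25 at 90 min (95% interval -0.59 to 0.09) and -0.33 at 4 hr (-0.67 to 0.01). Gimap9 and Gimap3 were lower with IL-2-REH in 5 of 6 pairs and Gimap4 in 4 of 6, whereas Gimap6 and Gimap7 were lower in 2 of 6. For Gimap9, the log2 difference was -0.38 at 90 min (95% interval -0.87 to 0.11) and -0.15 at 4 hr (-0.64 to 0.34). No member passed a test of whether the cytokine difference changed from 90 min to 4 hr (0 of 8 in edgeR, with 0 at an unadjusted p under 0.05, against 0.0% and 0.314% of all genes, and 0 with DESeq2).

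**Figure D3:**
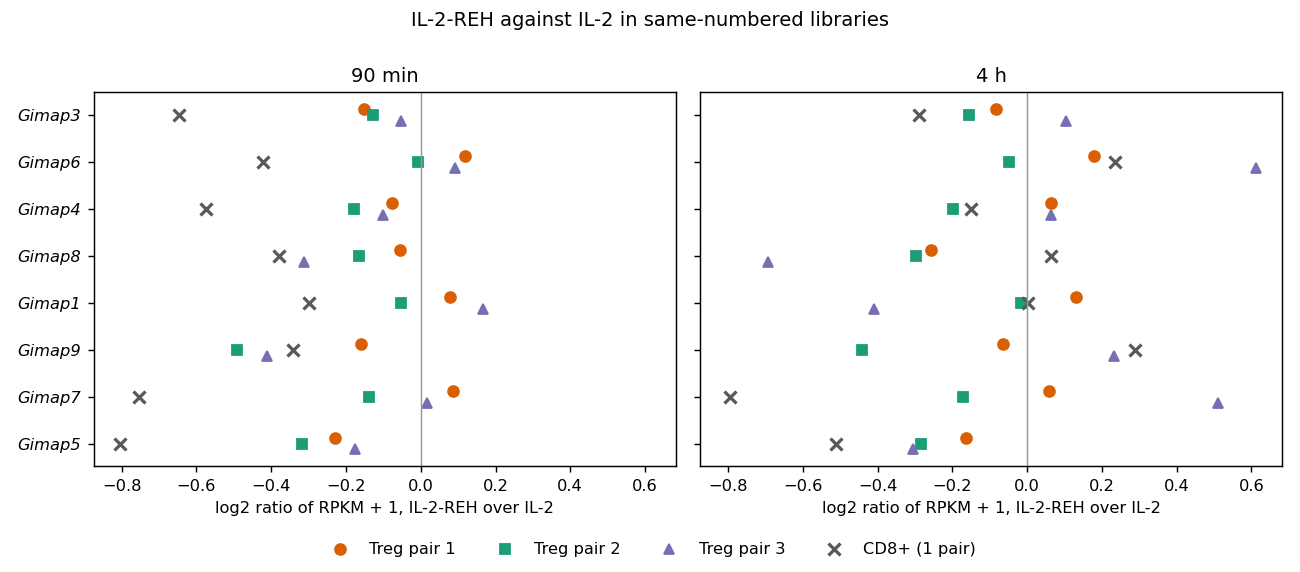
Log2 ratio of RPKM + 1 between IL-2-REH and IL-2 (x axis; below 0, lower with IL-2-REH) for each GIMAP gene at 90 min and 4 hr, in the 3 same-numbered Treg pairs (coloured) and the single CD8+ pair (cross). At 90 min the CD8+ pair lies between -0.80 and -0.30 for all 8 genes, and in Tregs Gimap8 and Gimap5 lie below 0 in every pair.

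In CD8+ T cells, where each group is 1 library and no test was run, the family was low after 90 min of IL-2-REH. All 8 members were lower with IL-2-REH than with IL-2, by log2 ratios of RPKM + 1 from -0.80 (Gimap5) to -0.30 (Gimap1), with a median of -0.50. Over 10021 genes the median was -0.07 and 70.5% were lower, and past an absolute ratio of 1 there were 0 members, against 0.808% of genes lower. The family took 0.244% of reads on genes in that library, against 0.331% in unstimulated cells and 0.334% with IL-2. The same library was the lowest of the 5 in the summed CD8 and T cell markers, though Cd3d and Cd2 were lower with IL-2 at 4 hr. The summed RPKM of the CD8 markers Cd8a and Cd8b1 was 281.9 there, 377.9 with IL-2 at 90 min and 727.7 in unstimulated cells. That of 5 T cell markers was 704, 739 and 1235, and 713 with IL-2 at 4 hr. The 17 genes of lymphocyte quiescence and homing were not lower there, with a median log2 ratio of 0.05 to IL-2 at 90 min. The part of the lower marker sums in the family's difference was not tested. Against unstimulated cells, all 8 were lower as well, with a median of -0.56 against -0.12 over all genes.

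Past a log2 ratio of -1, IL-2-REH at 90 min had 2 members, Gimap7 at -1.24 and Gimap5 at -1.04, where 6.11% of all genes were as low. Gimap7 went from 26.0 RPKM in unstimulated CD8+ T cells to 10.4, and Gimap5 from 45.1 to 21.4. With IL-2 at 90 min, these were at 18.2 and 38.2 RPKM. By 4 hr with IL-2-REH, all 8 members were above their 90 min values, by 0.11 to 0.76, where the median of all genes was 0.06. The libraries also differed in 8 immediate early genes such as Fos and Jun, whose summed RPKM was 690.6 in unstimulated CD8+ T cells and 66.9 to 158.6 after stimulation. In Tregs that sum was 1270 to 2111 unstimulated, 829 to 1806 at 90 min and 365 to 958 at 4 hr. Without untreated cells of the same times, these differences cannot be assigned to cytokine or to time in culture. The part of this in the comparisons with unstimulated cells was not tested.

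At 4 hr, IL-2-REH and IL-2 split the family in CD8+ T cells, with 4 members higher and 4 lower, or 6 lower once each ratio was taken relative to the median of all genes. The lowest ratios were those of Gimap7 (-0.79) and Gimap5 (-0.51) and the highest was that of Gimap9 (0.29), against a median of 0.08 over all genes. Gimap7 was at 24.3 RPKM under IL-2, next to 13.6 under IL-2-REH. Gimap6 was lower than in unstimulated cells with either cytokine, at 393 RPKM without cytokine, 287 and 214 at 90 min and 196 and 231 at 4 hr with IL-2 and IL-2-REH. Its log2 ratio with IL-2 at 4 hr was -0.997, so 0 members were past -1 there, against 3.4% of all genes. Gimap3 was higher with IL-2 at both times, at 346 and 359 RPKM against 260.1.

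Between the cell types, RNA of all 8 members was higher in Tregs on average in every condition. The exceptions once ratios were taken relative to the median of all genes were Gimap6 in unstimulated cells (-0.03), Gimap4 with IL-2 at 4 hr (-0.09) and, with IL-2-REH at 4 hr, Gimap8 (-0.10) and Gimap4 (-0.00032). The cell types differ in strain of origin, in sorting and in number of libraries, and these cannot be told apart from the cell type. All 15 Treg libraries lay above all 5 CD8+ libraries for 3 members, Gimap7, Gimap1 and Gimap3, and 7.24% of 10458 genes did so. Gimap7 was at 36.0 to 69.6 RPKM in Tregs and 10.4 to 26.0 in CD8+ T cells, 3.04-fold higher by the means. Gimap1 was at 54.6 to 131 against 30.1 to 46.3 RPKM, 2.38-fold higher, and Gimap3 at 388 to 652 against 221 to 359, 1.71-fold higher. The ranges of the other 5 overlapped, with ratios of means from 1.23 for Gimap4 to 1.89 for Gimap6.

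Within a condition, all 3 Treg libraries exceeded the CD8+ library for 6 of 8 members in unstimulated cells, 8 at 90 min and 7 at 4 hr under either cytokine. Of all genes, 35.4% did so unstimulated, 32.7% and 33.6% under IL-2 at 90 min and 4 hr, and 39.7% and 40.5% under IL-2-REH. The median log2 ratio of Treg to CD8+ over the members was 0.37 in unstimulated cells, where the median of all genes was 0.11, and 1.07 after IL-2-REH at 90 min, where it was 0.10. The latter rests on the 1 CD8+ library in which all 8 members were below unstimulated cells, with a median log2 ratio of -0.56. In Tregs the log2 fold changes of the members there ran from -0.24 to 0.75. The median ratio of Treg to CD8+ was 0.63 and 0.60 with IL-2 at 90 min and 4 hr and 0.78 with IL-2-REH at 4 hr. Past a log2 ratio of 1, unstimulated cells had 1 member (Gimap7, at 1.32) and 8.93% of all genes, and IL-2-REH at 90 min had 5 members and 10.7% of all genes. IL-2 at 90 min had 3 members (9.31% of all genes), and at 4 hr there were 2 under either cytokine (10.1% for IL-2 and 10.4% for IL-2-REH).

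Although neighbours on the chromosome, the members did not vary as a unit across the 15 Treg libraries. Over the 28 pairs, Pearson's r of log2(RPKM + 1) had a median of 0.12 and ran from -0.56 between Gimap8 and Gimap6 to 0.67 between Gimap1 and Gimap5, with 9 pairs below 0. These correlations describe libraries that share replicate numbers and groups. Gimap5 formed the 3 pairs above 0.5, with Gimap1, Gimap3 (0.66) and Gimap8 (0.64). Gimap1, Gimap5 and Gimap7 overlap the same annotated readthrough gene, and r of Gimap7 was 0.20 with Gimap1 and 0.06 with Gimap5. Gimap3 and Gimap5 share the sequence given above. Any part of these features in the correlations was not tested. Gimap6 was negatively correlated with Gimap8, Gimap7, Gimap1 and Gimap5 and positively with Gimap4 (0.48), Gimap9 (0.30) and Gimap3 (0.26).

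**Figure D4:**
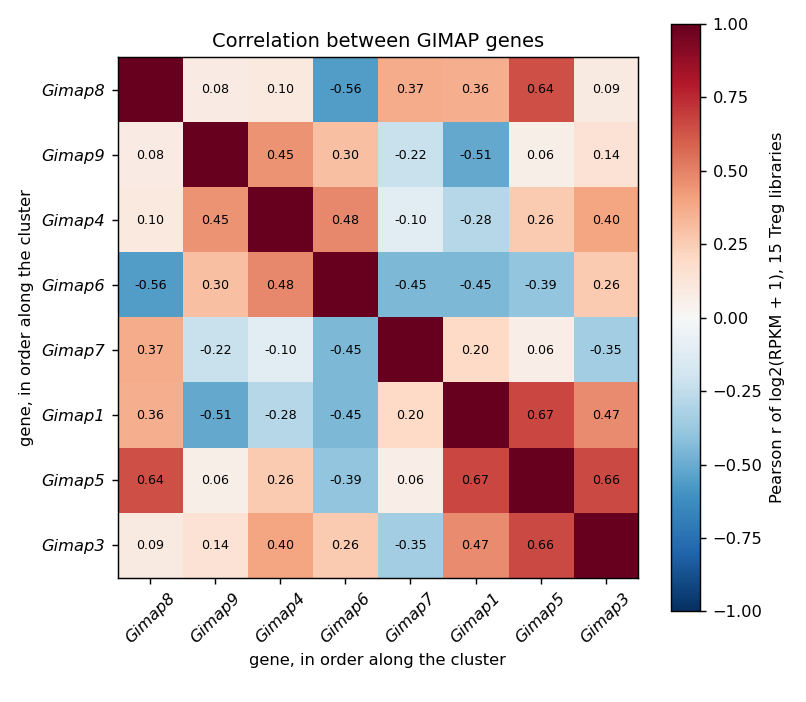
Pearson's r between GIMAP genes of log2(RPKM + 1) over the 15 Treg libraries, with genes in their order along the cluster on both axes (red positive, blue negative). Gimap1, Gimap5 and Gimap3 form a positive corner with r from 0.47 to 0.67, and Gimap6 is negative with Gimap8 at -0.56.

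The 5 genes most like the family's mean profile over the 15 Treg libraries, among 10465 searched, were Mob3c (r = 0.89, rho = 0.91), Bcl3 (0.86, 0.91), Sgcb (0.85, 0.78), Cd200 (0.84, 0.78) and Wdr77 (0.82, 0.88). Without the 2 libraries farthest from the median, their r was 0.80, 0.86, 0.67, 0.72 and 0.79. These were picked as the highest values, so their size is no finding. Gimap5 and Gimap3 followed the mean profile most closely (r = 0.76 each) and Gimap7 and Gimap6 least (0.12 and 0.15). Each member is itself part of that mean, which raises its r, and no mean without it was used.

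Other genes of the pathway place these values. Of 16 reported partners and effectors of GIMAP proteins, such as Mcl1 for survival and Gabarap and Map1lc3b for autophagy, the members with the most RNA, 0 passed the edgeR test in any of the 4 comparisons with unstimulated Tregs. Their median log2 fold change was 0.28 for IL-2 at 90 min, against -0.06 over all genes. With the replicate number as a block in edgeR, Mcl1 passed there (log2 fold change 0.88, adjusted p = 0.0212 with the block and 0.112 without), and with IL-2 at 4 hr Bcl2l1, which encodes the survival protein Bcl-xL, did (1.10, adjusted p = 0.0347 with the block and 0.0797 without), as did Bax (0.91, adjusted p = 0.0449 and 0.0741). Of 17 genes of lymphocyte quiescence and homing, the receptor gene Il7r (-1.37, adjusted p = 0.0232) and Tsc22d3 (-0.97, adjusted p = 0.0358 from edgeR) fell with IL-2 at 4 hr, the other 15 did not pass, and 0 passed in the remaining 3 comparisons, with a list median of -0.42 for IL-2 at 4 hr against -0.00 over all genes. With the block, 4 of 17 fell there, with Tcf7 and Pik3ip1 added.

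Of 13 IL-2 and STAT5 targets, 4 rose with IL-2 at 90 min and 4 at 4 hr, 1 rose with IL-2-REH at 90 min and 0 at 4 hr. In that order, 0.854%, 2.26%, 0.0934% and 0.314% of all genes passed in either direction. The feedback inhibitor Socs1 rose by a log2 fold change of 2.28 and 2.36 with IL-2 at 90 min and 4 hr (adjusted p = 0.0111 and 0.00694 from edgeR). Cish, another, rose by a log2 fold change of 2.12 and 1.56 with IL-2 (adjusted p = 7.56e-05 and 0.00073 from edgeR) and 1.10 with IL-2-REH at 90 min (adjusted p = 0.0343). With the block, 5, 7, 1 and 3 of the 13 rose. In the single CD8+ libraries, their median log2 ratio to unstimulated cells was 1.08 and 1.43 with IL-2 at 90 min and 4 hr. With IL-2-REH it was -0.55 and -0.60. Over all genes, these medians were -0.04 and -0.07 with IL-2 and -0.12 and -0.02 with IL-2-REH. Of 14 other immune GTPases of the IRG and GBP families, Gbp5 rose with IL-2 at 90 min and 4 hr (1.82 and 1.60, adjusted p = 0.00359 and 0.00681) and Gbp2 at 4 hr (1.36, adjusted p = 0.0418 from edgeR), and 0 passed with IL-2-REH. With the block, 3 rose and 2 fell (Gbp8 and Gbp9) with IL-2 at 4 hr, and the same 2 fell with IL-2-REH at 4 hr. In CD8+ T cells, 11 of these 14 were past a log2 ratio of 1 with IL-2 at 4 hr, where 1.31% of all genes were, and 0 GIMAP genes. The median log2 ratio of the 14 was 1.37 there and 0.15 with IL-2-REH at 4 hr. Of 9 listed genes next to the cluster, 7 could be tested in Tregs and 0 passed, and with the block in edgeR Zfp467 fell with IL-2 at 90 min and AI854703 at 4 hr (adjusted p = 0.0439 and 0.0238). The genes that flank the cluster directly were nearly silent. Zfp775, Repin1, Tmem176a and Tmem176b had a mean of 0.811 to 1.35 RPKM in Tregs. AI854703, also a flanking gene, had a mean of 0.273 RPKM, and its fall rests on values of 0.0593 to 0.683 RPKM.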

How the data were processed

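RNA was sequenced from mouse Tregs (15 libraries) and CD8+ T cells (5 libraries). The authors mapped 50-base single-end reads to mm10 with TopHat2 2.1.1 and Bowtie2 2.2.6, and SAMtools 0.1.8, bedtools 2.25.0 and edgeR also appear in the submitters' processing notes. The deposited read counts per transcript hold uniquely mapped reads on exons, without normalization, and the use of strand in counting is not given in the sources used here. The deposited RPKM values were scaled by the authors to exon length and mapped reads.

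Per gene symbol, the transcript with the most reads was kept, and 14992 genes that passed filterByExpr were fitted over the 15 Treg libraries with edgeR 4.0.16 in R 4.3.3 (TMM factors, 5 group means, quasi-likelihood test, Benjamini-Hochberg adjustment, threshold 0.05). With all libraries kept, each p compares 3 libraries with 3, on a spread estimated over the 15. Fits that leave out libraries compare fewer. The scripts were tested on simulated data. Alternatives were DESeq2 1.42.0, limma 3.58.1 on log2(RPKM + 1) and log2(RPKM + 0.1), other scalings and filters, the longest transcript, the groups compared alone, a replicate block and leaving out libraries, 29 settings in all. CD8+ T cells had 1 library per group and were compared by log2 ratios of RPKM + 1, without a test, over genes at a mean RPKM of at least 1, counted past an absolute ratio of 1. Treg and CD8+ libraries were compared in the same way. With these libraries no CD8+ value has an error, and read counts of 821 or more stand behind every value.

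Deviations of same-numbered libraries from their group means correlated with r from 0.121 to 0.84 (30 of 30 above 0.1). The numbers, taken from the sample titles, were therefore treated as pairing the Treg libraries in the pair ratios and the blocked fit. The main fit, which gave the intervals and p-values not marked otherwise, has no block, and blocked values are given beside some results.

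The members and gene lists were chosen with earlier results of these data known. Named genes were the 8 members, examples from each list (the largest change among those called, then the highest mean RPKM) and the 5 genes most like the family's mean profile. Promoter sequences came from RefSeq on GRCm38.p6, and all 8 members matched by symbol. Other assays of the study were not analysed here. No protein sequence was used.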

Additional observations from a re-analysis of the deposited data

Results flagged for a closer look

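In 4 instances a member moved one way in all 3 same-numbered Treg pairs and the other way between the single CD8+ libraries. The differences between the cell types were not tested, and values are log2 ratios of RPKM + 1. For IL-2-REH at 90 min against unstimulated cells, Gimap9 was at -0.21 in CD8+ T cells and at 0.30, 0.04 and 0.04 in Tregs, and Gimap3 was at -0.24 against 0.12, 0.18 and 0.18, where 5.0% of 9977 genes differed in sign in this way. For IL-2-REH against IL-2 at 4 hr, Gimap8 was at 0.063 in CD8+ T cells and at -0.26, -0.30 and -0.69 in Tregs (11.2% of genes). For IL-2-REH at 4 hr against 90 min, Gimap6 was at 0.11 in CD8+ T cells and at -0.58, -0.56 and -0.40 in Tregs (7.6% of genes).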

How the results depend on the processing

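With all Treg libraries 0 members were called, and among the alternatives run the count rose only where a library of replicate 1 was left out. Leaving out libraries gave 0 to 1 members for IL-2 and for IL-2-REH at 90 min, and leaving out the unstimulated library of replicate 1 with a replicate block, chosen after seeing the data, gave 3 and 1 members for IL-2 at 90 min and 4 hr and 2 and 2 for IL-2-REH. The replicate block on all libraries changed no member's call. The direction of Gimap6 at 4 hr was unstable: with IL-2 its log2 fold change ran from -0.49 to 0.43 when libraries were left out and was 0.51 with the added alternative, and with IL-2-REH it ran from -0.21 to 0.65 and was -0.023 with the block. In CD8+ T cells, 1 member was past the ratio with IL-2 at 4 hr at a pseudocount of 0.1 (0 at 1), and with IL-2-REH at 90 min 0 were past a ratio of 2 and 1 was past 1 once centred on the median of all genes (2 otherwise). The median Treg to CD8+ log2 ratio of unstimulated cells was 0.26 once centred and 0.32 to 0.49 without single replicates. Scaling to library totals moved the median log2 fold change of all genes at 90 min to -0.21 with either cytokine, from -0.06 and -0.05, and to 0.22 and 0.27 for 4 hr against 90 min. Whole-table counts for IL-2 at 90 min and 4 hr and IL-2-REH at 90 min and 4 hr were 128, 339, 14 and 47 in edgeR, 275, 1040, 32 and 454 with the block, 553, 1028, 109 and 582 in DESeq2, 108, 266, 0 and 25 in limma, 31, 15, 0 and 1 with only the groups compared, 2509, 1938, 2269 and 1545 without replicate 1, 1, 3, 0 and 0 without replicate 2, and 0, 11, 0 and 0 without replicate 3. Groups had 3 libraries in Tregs and 1 in CD8+ T cells, and no alternative with fewer reads was run.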
